A study of Mus musculus with 3 samples.

Results

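The genes of caveolae, of the diaphragm protein PLVAP and of the transcytosis suppressor MFSD2A were followed in microvessel fragments of mouse brain, which are prepared by breaking up the tissue and collecting its small vessels together with adhering wall cells. The 10 members were chosen by name: the caveolins Cav1, Cav2 and Cav3, the cavins Cavin1, Cavin2 and Cavin3, the neck proteins Ehd2 and Pacsin2, and Plvap and Mfsd2a. All 10 were found by symbol among 56941 genes of the count table. The 3 libraries of polyadenylated RNA, replicates 1, 2 and 3, form a single group of wild-type adult C57BL/6J mice, with no treatment, transgene or control group beside them. The sources used here give no sex and no exact age. The series describes 3 mice, so each library was taken as 1 mouse. Without a contrast between conditions, the data give levels, the ratios between members within a library, and the spread between libraries.

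Caveolae are flask-shaped pits of the plasma membrane. Caveolins form the membrane coat, cavins assemble on it from the cytosol, and EHD2 and PACSIN2 act at the neck of the pit. Endothelium of most organs uses these pits for vesicle traffic, whereas capillaries of the brain hold few of them. MFSD2A, a transporter of lysophosphatidylcholine in that endothelium, is known to keep caveolar transcytosis low, and arteriolar endothelium of the brain, which has little MFSD2A, is known to hold many caveolae.

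The expected cell type was present in all 3 libraries. All 16 endothelial markers passed 1 CPM (counts relative to library size after edgeR's TMM scaling) in every library, with summed levels of 20650 to 26153 CPM. The libraries held 128428355 to 150449539 counts. Smooth muscle markers summed to 5986 to 6931 CPM, pericyte markers to 3900 to 4129 CPM and microglial markers to 4709 to 6265 CPM. Choroid plexus markers summed to 5111 to 8254 CPM and astrocyte markers to 1071 to 1969 CPM, so the levels below are those of a mixture. The lists differ in length and in the level of their highest gene, so these sums do not rank the cell types. In such bulk RNA, fewer cells of a type and less RNA per cell cannot be told apart. Replicate 2 stood apart in pituitary hormone genes (summed level 1452 CPM, against 20.9 and 18.4 CPM in replicates 1 and 3), and replicate 1 in erythroid genes (1089 CPM, against 134 and 62.5 CPM).

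Of the 10 members, 9 were detected, which means 1 CPM or more in every library, as were 23.2% of all genes in the table. Per kilobase of exon, a scale on which genes of different length can be compared, the median over all 10 members was 94.5 CPM per kb, beside 5.88 CPM per kb over the 12826 detected genes with a length. Among those detected genes, Cavin1 stood at percentile 99.3, Cav1 at 98.3 and Mfsd2a at 98.2, and Pacsin2, the lowest detected member, at 86.4. Cav3 was the member below the limit.

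**Figure D1:**
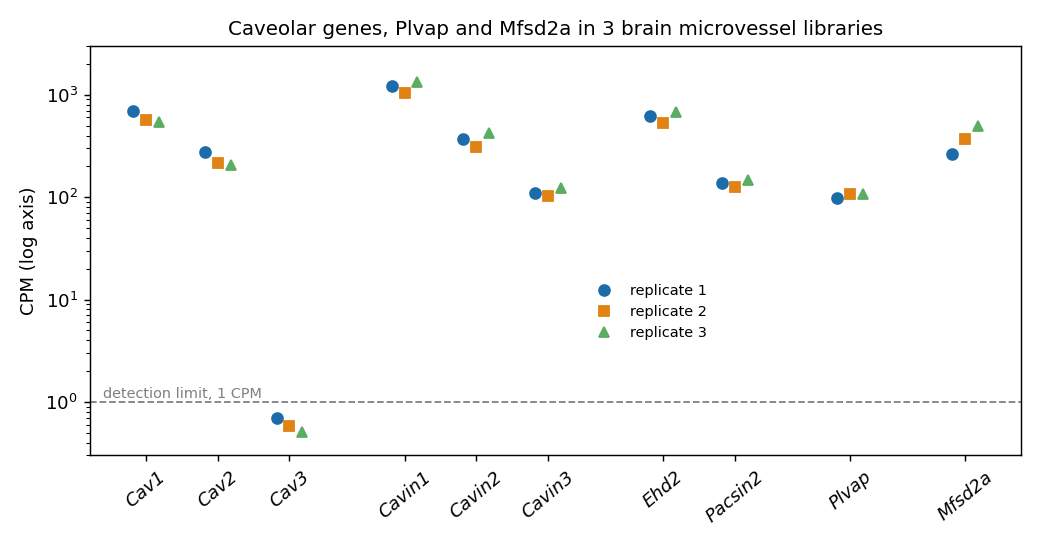
CPM (log axis) of the 10 members in each of the 3 libraries, grouped by role; each point is 1 library and the dashed line is the detection limit of 1 CPM. Cav3 alone lies below the line in all 3 libraries, and Mfsd2a has the widest spread, from 262 to 494 CPM.

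Caveolin genes gave a major, a lesser and a near-absent transcript. Cav1 encodes the main structural caveolin of endothelium and smooth muscle. It had 700 CPM in replicate 1, 568 CPM in replicate 2 and 540 CPM in replicate 3. Cav2, whose protein joins caveolin-1 in mixed oligomers, had 277, 218 and 206 CPM in the same order. For both genes replicate 1 was the high library, and replicates 2 and 3 lay close to each other. Cav3, the caveolin of striated muscle, had 90, 82 and 73 counts, or 0.692, 0.587 and 0.503 CPM. Its level lay at 0.556 to 0.850 CPM in replicate 1 and 0.394 to 0.632 CPM in replicate 3 (exact Poisson limits at 95%, for counting error only). The log2 difference between these libraries was -0.46, with a 95% counting half-width of 0.45, so the depth barely resolved it. Skeletal and cardiac muscle markers were near 0 as well: the creatine kinase gene Ckm had 15, 5 and 30 counts and the myosin gene Myh4 none, with Mylpf, a myosin light chain gene, the highest of the 10 markers at 9.18 ± 1.58 CPM (SD, n = 3).

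Cav2 kept a nearly fixed ratio to Cav1. Per length, Cav2 stood at 0.408, 0.395 and 0.395 of the Cav1 level in replicates 1, 2 and 3 (0.399 ± 0.00741, SD, n = 3). A ratio within a library does not depend on how libraries are scaled. Of 13210 other detected genes, 97 (0.734%) had a log2 ratio to Cav1 with a smaller SD over the libraries than Cav2. This measure of likeness was chosen after the values were seen, rests on 3 libraries and carries no test. It includes counting error, which is larger for genes with few counts, and the genes were not matched for level. A gene with many counts, as Cav2 has, is thus favoured by it. The genes are neighbours on chromosome 6. The stretches before their annotated starts, with that of Mfsd2a, were picked for display after the values were seen. Each lies outside the annotated exons of its own gene.

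The sequences are the 250 bases before the start, 5′ to 3′ on the gene's strand, from RefSeq on build GRCm38.p6, which is not the GRCm39 build of the counts: Cav1 at chr6:17306085-17306334 (plus strand), Cav2 at chr6:17280935-17281184 (plus strand) and Mfsd2a at chr4:122961189-122961438 (minus strand). Capitals mark matches on either strand to TATAAA (the TATA box), GGGCGG (the GC box), CCACCC (a KLF core) or CTTTGA (a TCF/LEF core).
Cav1: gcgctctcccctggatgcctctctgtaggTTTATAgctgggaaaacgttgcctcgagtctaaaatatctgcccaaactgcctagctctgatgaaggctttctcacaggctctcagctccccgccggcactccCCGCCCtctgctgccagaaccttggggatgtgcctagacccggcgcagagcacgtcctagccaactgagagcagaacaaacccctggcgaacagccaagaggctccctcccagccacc
Cav2: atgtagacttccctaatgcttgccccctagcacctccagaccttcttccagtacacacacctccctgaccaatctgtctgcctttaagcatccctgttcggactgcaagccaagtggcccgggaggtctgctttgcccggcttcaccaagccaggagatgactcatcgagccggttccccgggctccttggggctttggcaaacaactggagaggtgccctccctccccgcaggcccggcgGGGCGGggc
Mfsd2a: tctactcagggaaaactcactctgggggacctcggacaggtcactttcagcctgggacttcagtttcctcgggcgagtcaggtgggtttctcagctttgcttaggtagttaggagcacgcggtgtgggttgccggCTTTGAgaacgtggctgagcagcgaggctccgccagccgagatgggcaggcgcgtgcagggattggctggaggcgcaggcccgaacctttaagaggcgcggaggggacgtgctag

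The Cav1 stretch holds 1 TATAAA match and 1 GC box, the Cav2 stretch 1 GC box, and the Mfsd2a stretch 1 CTTTGA match and none of the other motifs. The TATAAA match of Cav1 lies on the opposite strand, near the end of the stretch that is farthest from the start. RefSeq gives Cav1 another start, and the 250 bases before that one (chr6:17307390-17307639, plus strand) hold none of the 4 motifs. Of 32851 stretches of the same length in the RefSeq table, 12.4% hold TATAAA, 32.7% GGGCGG, 28.1% CCACCC and 13.8% CTTTGA. In 8 of the 10 members such a stretch was found. GC boxes were also held by the stretches of Cavin1 and Ehd2 and by 1 of Pacsin2, and those of Cavin1 held 2 CCACCC matches. GC content was 59.6% for Cav1, 62.0% for Cav2 and 61.6% for Mfsd2a, against a median of 52.4% over the table. It was 67.6% for Cavin1 and 40.4% for Cavin2. The observed-to-expected CpG ratio was 0.471, 0.427 and 0.754 for Cav1, Cav2 and Mfsd2a (0.198 for Cavin2 and 0.588 at the other Cav1 start), with a table median of 0.373. These matches describe letters and were not tested as binding sites.

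Cavin1 was the highest member on both scales. Its protein, also known as PTRF, is required for caveolae to form, and its transcript had 1218, 1048 and 1323 CPM in replicates 1, 2 and 3. Cavin2, whose protein shapes caveolae in endothelium, had 367, 310 and 423 CPM. Cavin3, whose protein binds protein kinase C delta, had 110, 103 and 124 CPM. All 3 cavins were lowest in replicate 2 and highest in replicate 3. The Cavin3 count is uncertain, since 22.5% of its exonic length lies under Gm45667 on the other strand and the strand setting of the counting is not given in the sources used here; Gm45667 itself had 48, 45 and 64 counts. The muscle cavin Cavin4, from the list of further caveolar genes, had 0.984, 1.05 and 1.32 CPM.

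Neck protein genes went with the cavins. Ehd2 encodes an ATPase that holds caveolae at the cell surface, and it had 620, 530 and 676 CPM in replicates 1, 2 and 3. Pacsin2 encodes a membrane-bending protein with an F-BAR domain, and it had 137, 125 and 147 CPM. Both thus had the same low library as the cavins. Ehd2 stood at 0.356, 0.354 and 0.358 of the Cavin1 level per length, and its log2 ratio to Cavin1 had an SD of 0.00786 over the libraries. By the same measure of likeness, which favours genes with many counts, 5 of 13210 detected genes (0.0379%) were closer to Cavin1 than Ehd2. These were Elmo1, Panx1, Vsir, Stmn2 and Rabl3, named after their values were seen. The shares closer than Pacsin2, Cavin2 and Cavin3 were 2.23%, 2.90% and 3.03%. Per length, Pacsin2 had 0.235 ± 0.0102 of the Ehd2 level, Cavin2 0.359 ± 0.0152 and Cavin3 0.203 ± 0.00868 of the Cavin1 level (SD, n = 3).

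**Figure D2:**
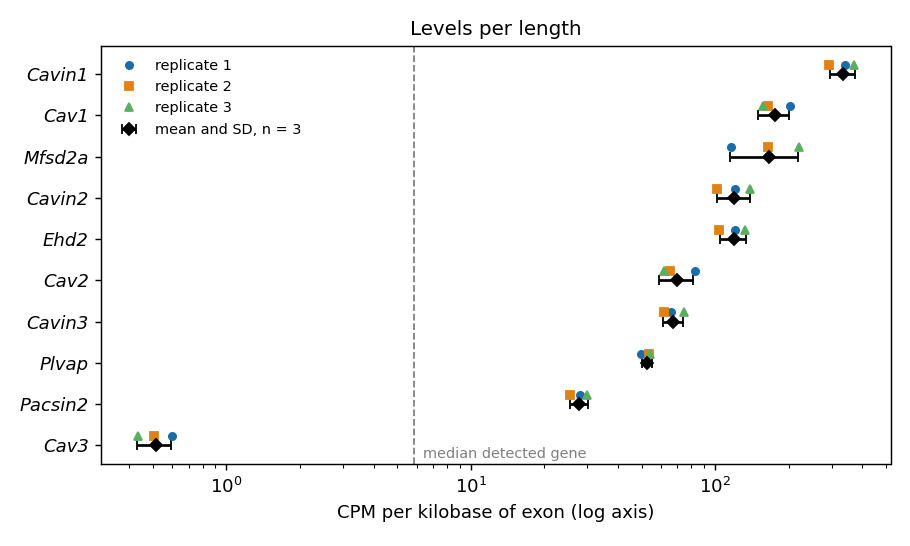
CPM per kilobase of exon (log axis) of each member; black diamonds and bars give the mean and SD of 3 libraries, coloured points the single libraries, and the dashed line the median of detected genes. Cavin1 leads at 334 CPM per kb, 9 members lie above the dashed line at 5.88 and Cav3 lies below it at 0.513.

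Per length, the levels formed steps, some of which were not resolved. Cavin1 led at 334 ± 38.6 CPM per kb (SD, n = 3), followed by Cav1 at 175 ± 24.8, Mfsd2a at 167 ± 51.6, Cavin2 at 120 ± 18.6 and Ehd2 at 119 ± 14.4 CPM per kb. Then came Cav2 at 70.0 ± 11.3, Cavin3 at 67.4 ± 6.37, Plvap at 52.5 ± 2.43, Pacsin2 at 27.8 ± 2.23 and Cav3 at 0.513 ± 0.0817 CPM per kb. Neighbours in this order were called apart where the order held in 3 of 3 libraries and the mean log2 difference exceeded its SD. By that rule Cavin1 was above Cav1, Ehd2 above Cav2, Cavin3 above Plvap, Plvap above Pacsin2 and Pacsin2 above Cav3. With these exonic lengths, Cav1 and Mfsd2a, Mfsd2a and Cavin2, Cavin2 and Ehd2, and Cav2 and Cavin3 were not separated. No p-value is given for these differences; an exact sign-flip test over 3 libraries cannot go below 0.25. Exon lengths came from GENCODE M21, and with the longest transcript as the length the log2 ratio of Cavin1 to Cav1 was 0.65 in place of 0.93. The longest transcript is shorter than the exonic length for Mfsd2a (2151 against 2250 bases) and Cav2 (2733 against 3335 bases). For Cavin2 (3055 bases) and Cavin3 (1662 bases) the lengths are equal. That choice raises Mfsd2a against Cavin2 and Cav2 against Cavin3, so whether these pairs are separated depends on the length used.

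Plvap was present at a level that hardly differed between libraries. Its protein forms the diaphragms of fenestrae and caveolae and marks fenestrated vessels such as those of choroid plexus and pituitary, while mature barrier endothelium is known to lack it. Plvap had 98.8, 107 and 107 CPM in replicates 1, 2 and 3. The highest library exceeded the lowest 1.09-fold, beside a median of 1.20-fold over detected genes. Genes of tissues with fenestrated vessels differed more between libraries: pituitary markers by the sums given above, and the 8 choroid plexus markers from 5111 CPM in replicate 3 to 8254 CPM in replicate 2. A single gene with a mean of 6282 CPM made up most of the choroid plexus sum. Averaged over the 8 markers, the log2 deviations were 0.40, 0.06 and -0.46, highest in replicate 1. The part of the pituitary and choroid plexus genes in the Plvap level was not tested. The 7 other genes listed for fenestrated endothelium were all detected, at 5.03 CPM for Gpihbp1 to 239 CPM for Nrp1, with sums of 595, 602 and 599 CPM. Single genes of the list were less even than the sums: Esm1 had 10.2, 5.61 and 12.3 CPM and Cd24a 54.4, 26.4 and 44.6 CPM, both lowest in replicate 2, where Igfbp5 was highest (85.9, 124 and 59.8 CPM). The list is a loose one, since Nrp1 is also expressed outside fenestrated vessels. Relative to Cav1, Plvap stood at 0.245, 0.326 and 0.344 per length.

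Mfsd2a varied the most among the members. It had 262 CPM in replicate 1, 369 CPM in replicate 2 and 494 CPM in replicate 3, a 1.88-fold range with no 2 libraries close to each other. The SD of its log2 level was 0.46, beside medians of 0.14 over all detected genes and 0.18 over the 9 detected members, and 3.89% of detected genes had a larger one. Replicate 1, low in Mfsd2a, was the library highest in Cav1 and Cav2. The ratio of Mfsd2a to Cav1 per length was therefore 0.574, 0.995 and 1.40 in replicates 1, 2 and 3, a 2.44-fold range, and 98.9% of detected genes kept a steadier ratio to Cav1. On average this log2 ratio was -0.11 ± 0.65 (SD, n = 3), and it turned to 0.24 without replicate 1.

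**Figure D3:**
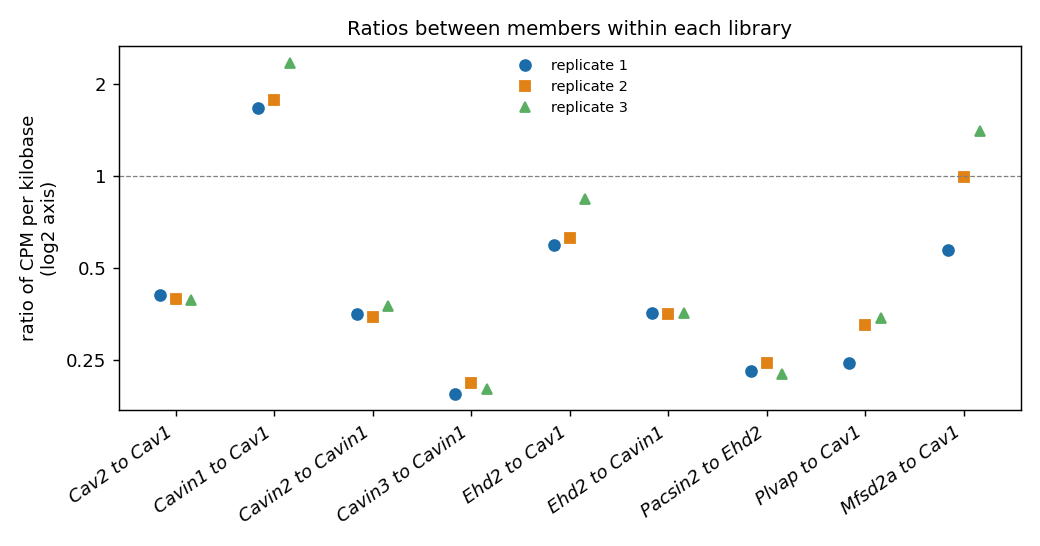
Ratios of CPM per kilobase between pairs of members within each library (log2 axis, dashed line at equal levels). Cav2 to Cav1 and Ehd2 to Cavin1 are almost the same in the 3 libraries, whereas Mfsd2a to Cav1 runs from 0.574 to 1.40.

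On average, general endothelial and capillary markers were lowest in replicate 1, like Mfsd2a, with smaller deviations. Single markers could differ: the capillary marker Tfrc had 169, 163 and 154 CPM, highest in replicate 1. The 16 endothelial markers deviated from their own means by -0.17, 0.01 and 0.16 (log2, mean over the markers) in replicates 1, 2 and 3 and the 8 capillary markers by -0.21, 0.12 and 0.09, while Mfsd2a deviated by -0.47, 0.02 and 0.44. Scaled to the endothelial markers, Mfsd2a still had 295, 366 and 443 CPM, a log2 difference of 0.59 between replicates 3 and 1, beside 0.91 with TMM scaling. Scaled in this way Cav1 had 788, 563 and 484 CPM and Cav2 311, 216 and 185 CPM, so the differences of both grew, with replicate 3 at 0.615 and 0.595 of replicate 1. Other lists that were high in replicate 1 and low in replicate 3 were choroid plexus (deviations of 0.40, 0.06 and -0.46), neuronal (0.27, -0.11 and -0.16) and erythroid (2.38, -0.62 and -1.76) genes. Astrocyte genes (0.10, 0.26 and -0.37) were also above their mean in replicate 1 and lowest in replicate 3, and highest in replicate 2. Their part in the caveolin values, and that of the other lists, was not tested. The 10 arterial markers deviated by -0.01, 0.03 and -0.02. The 8 venous markers deviated by -0.42, 0.50 and -0.08, almost as low in replicate 1 as Mfsd2a but highest in replicate 2; their part in the Mfsd2a values was not tested.

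The caveolins shared an order of their libraries, and the cavins and neck genes shared another. All 3 caveolins were highest in replicate 1 and lowest in replicate 3, the order of 19.1% of the 18087 genes tested for variability. All 5 cavin and neck genes were highest in replicate 3 and lowest in replicate 2, the order of 14.4% of those genes. Plvap and Mfsd2a were highest in replicate 3 and lowest in replicate 1, as were 20.1% of the genes, although the Plvap values of replicates 2 and 3 were nearly equal and changed places with plain library totals. Both orders were noticed in these data and were not tested, and for Cav3 the order rests on 73 to 90 counts. Smooth muscle markers deviated by 0.08, -0.17 and 0.10 and microglial markers by 0.20, -0.24 and 0.04, beside 0.03, -0.18 and 0.15 for Cavin1. Fibroblast markers deviated by 0.185, -0.17 and -0.016. By these mean deviations, all these lists were lowest in replicate 2, as were the fenestrated endothelium and oligodendrocyte lists. Summed levels gave another order for the last named: the fenestrated endothelium sum was highest in replicate 2 (595, 602 and 599 CPM). The oligodendrocyte sum was lowest in replicate 3 (176, 161 and 160 CPM). The part of these lists in the cavin values was not tested. The order of the caveolins held with DESeq2 size factors, with plain library totals and with scaling to the endothelial markers. The cavin and neck genes were lowest in replicate 2 under all of these too. Scaling to the endothelial markers shifts replicate 3 against replicate 1 by -0.33 (log2) for all genes. With it, replicate 1 was the highest library of the cavin and neck genes. Plvap was then highest in replicate 1 and lowest in replicate 3, the order of the caveolins.

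**Figure D4:**
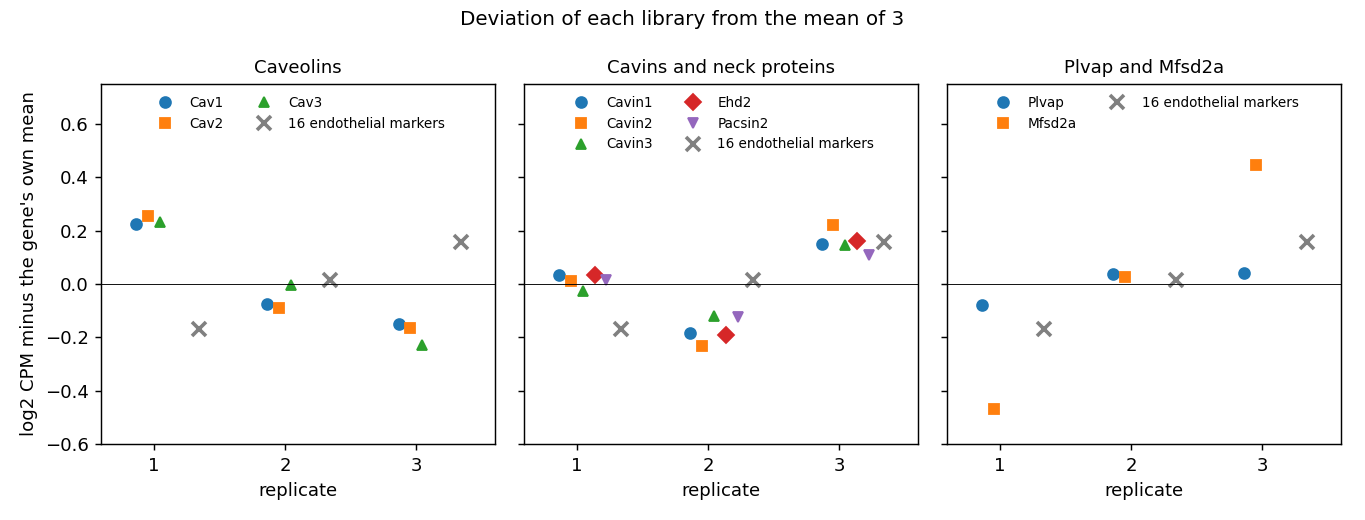
Log2 CPM of each member minus its own mean over the libraries, by replicate, in 3 panels; grey crosses give the mean over 16 endothelial markers. The caveolins lie above 0 in replicate 1 only, the cavins and neck genes lie lowest in replicate 2, and Mfsd2a runs from -0.47 to 0.44.

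No member passed the test for more variability than the trend at its expression level. In edgeR's quasi-likelihood dispersion test with Benjamini-Hochberg adjustment over 18087 genes, 0 of the 10 members passed an adjusted p of 0.05, against 15 genes (0.0829%) overall. Mfsd2a was the 1 member under an unadjusted 0.05, where 5.18% of all genes tested lay, and its adjusted p was 0.930 in edgeR. The other 9 members had an adjusted p of 0.993 by the same edgeR test. The count over all genes ran from 7 without replicate 1 to 80 without replicate 2, and DESeq2 marked 137 dispersion outliers; 0 of the members was among the calls in any of these. A member that was not called may still differ between mice.

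**Figure D5:**
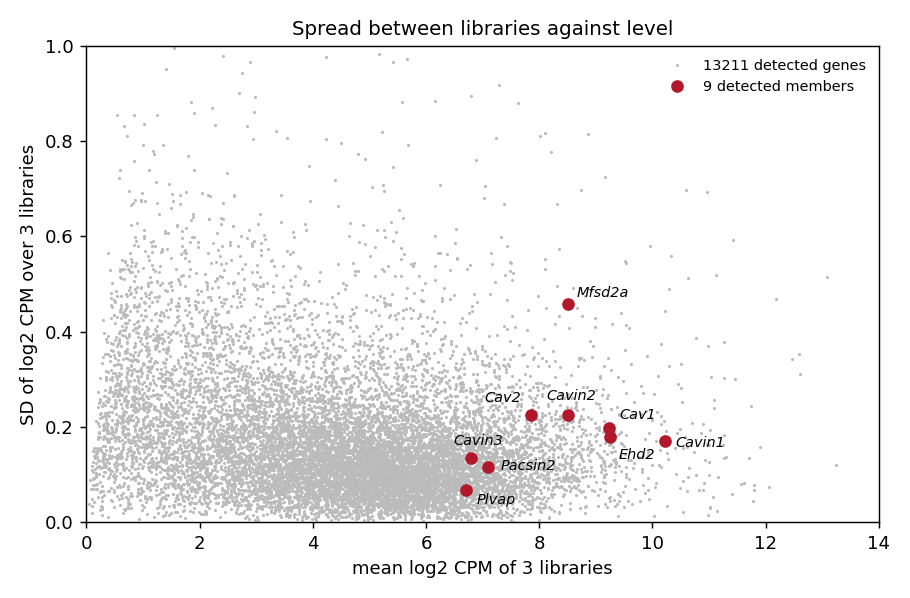
SD of log2 CPM over 3 libraries against mean log2 CPM, for 13211 detected genes (grey) and the 9 detected members (red); 32 genes with an SD above 1 lie outside the plot. Mfsd2a lies at an SD of 0.46 and Plvap at 0.07, with the other members between 0.12 and 0.23.

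Further genes listed around the caveola, which include relatives of the members such as Ehd1 and Pacsin1, had a lower median level than the members. Of 14 listed, 13 were detected and 0 were called more variable by edgeR's test, with a median of 9.87 CPM per kb. The endothelial nitric oxide synthase gene Nos3, whose protein binds caveolin-1, led the list at 87.6 CPM per kb; it had 302, 338 and 446 CPM, lowest in replicate 1 like Mfsd2a. Of its exonic length 32.3% lies under Atg9b and Gm15587 on the other strand, so this count is uncertain. Cavin4 was the lowest at 0.545 CPM per kb and the member of the list that missed the limit, being below 1 CPM in replicate 1. The dynamin gene Dnm2 (named after its values were seen), whose protein cuts vesicles from the membrane, had 275 ± 30.5 CPM, and the neuronal form Dnm1 8.43 ± 0.851 CPM (SD, n = 3). Per length, Nos3, Ehd4, Dnm2 and Ehd1 lay above the member Pacsin2, at 87.6, 54.9, 51.6 and 36.5 against 27.8 CPM per kb. The other genes of the list lay below Pacsin2.

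Genes of the clathrin route, the other main way of vesicle uptake, were all detected, 14 of 14, with a median of 41.2 CPM per kb and 0 called. They ran from the light chain gene Clta at 97.3 CPM per kb to the adaptor gene Eps15 at 13.7 CPM per kb. The receptors and cargo binders of transcytosis were likewise detected, 14 of 14, at a median of 19.5 CPM per kb and with 0 called. Fcgrt, the receptor that carries immunoglobulin G, led them at 269 CPM per kb and the fatty acid receptor gene Cd36 was the lowest at 0.416 CPM per kb. Of 15 genes of Wnt signalling and barrier control, a pathway known to sustain Mfsd2a in central nervous system vessels, 14 were detected and 0 were called, with a median of 26.4 CPM per kb. The list ran from Ctnnb1 (beta-catenin) at 303 CPM per kb to the Norrin gene Ndp at 0.504 CPM per kb, and its detected genes deviated by -0.07, 0.01 and 0.06 in replicates 1, 2 and 3. For Ctnnb1, 14.6% of the exonic length lies under Ulk4 on the other strand.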

How the data were processed

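The authors deposited whole-number counts per gene for 3 libraries; per the submitters' processing notes these came from featureCounts and Subread 1.4.6-p5 on GRCm39. Per the labels' protocols, stranded polyadenylated libraries were sequenced as paired reads. The sources used here do not give the aligner, annotation release, or strand and multi-mapping settings. Depth was 128428355, 136672205 and 150449539 counts, so 3 counts equal 0.0234, 0.0220 and 0.0199 CPM (counting error only). CPM were computed with TMM factors of edgeR 4.0.16 (R 4.3.3; Python 3.11.15 for lengths and figures). Exon lengths were matched by symbol to GENCODE M21 (GRCm38). Of the members, Cavin3 alone shared 100-base stretches with another annotated gene. Variability was tested by the quasi-dispersion of each gene against the trended prior (intercept only, filterByExpr, upper-tail F test, Benjamini-Hochberg at 0.05), after a check on simulated data. All members were named, and of each pathway list the highest and lowest gene per length. Alternatives used DESeq2 1.42.0, other scalings, lengths and limits, and each replicate left out. The members and lists were chosen with earlier results of these data known. Nothing says how the libraries were batched.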

Additional observations from a re-analysis of the deposited data

How the results depend on the processing

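Levels of the members in CPM moved by less than their SD over the libraries under every scaling and with each replicate left out, and 9 members were detected at 5 CPM and without any one replicate, and 10 at 0.5 CPM. Replicate 3 over replicate 1 (log2) turned negative with scaling to the endothelial markers for Cavin1 (-0.21), Cavin2 (-0.12), Cavin3 (-0.16), Ehd2 (-0.20), Pacsin2 (-0.23) and Plvap (-0.21), since that scaling lowers replicate 3. Ratios between members (log2) moved with the length used. With the longest transcript they were -1.36 for Cav2 to Cav1, 0.65 for Cavin1 to Cav1, -0.88 for Ehd2 to Cav1, -1.53 for Ehd2 to Cavin1, -1.68 for Pacsin2 to Ehd2 and -2.06 for Plvap to Cav1. With no length scaling they were -1.37 for Cav2 to Cav1, -1.71 for Cavin2 and -3.41 for Cavin3 to Cavin1, 0.0162 for Ehd2 to Cav1 (against -0.56 per length), -0.98 for Ehd2 to Cavin1 and -2.52 for Plvap to Cav1. Without single replicates the ratio of Mfsd2a to Cav1 ranged from -0.40 to 0.24. The count of genes more variable than the trend was 15 in edgeR, 0 with a robust prior (785 at an unadjusted p under 0.05), 173 without a filter on low counts, 137 as DESeq2 dispersion outliers and 7 to 80 with a replicate left out; the cause was not tested. None of 70 such results for the members passed. Samples could not be paired between conditions because all 3 libraries belong to 1 group.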
